A study of Caenorhabditis elegans with 12 samples.

Results

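The 10 genes described here carry the methionine cycle of Caenorhabditis elegans and the step that uses it most directly for membrane lipid, the synthesis of phosphocholine. They are the S-adenosylmethionine (SAM) synthetase genes sams-1, sams-3, sams-4 and sams-5, the phosphoethanolamine methyltransferase genes pmt-1 and pmt-2, and metr-1, mthf-1, cbs-1 and ahcy-1. Members were taken by their gene names in the WBcel235 annotation, and all 10 were found among the 46926 genes of the count table. All 10 passed the filter on low counts, as did 13695 genes in all.

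Whole N2 hermaphrodites, the wild-type laboratory strain, were treated as young adults for 48 h with 100 µM bromhexine, a mucolytic drug, with 200 µM genipin, a plant compound that crosslinks proteins, or with the solvent DMSO. Each of these 3 groups has 4 RNA-seq libraries, 12 in all. Every group grew on OP50-1 bacteria with streptomycin and with FUDR, an inhibitor of thymidylate synthase that keeps eggs from developing, and the labels place all libraries in batch 1. Whether the replicates came from separate cultures is not stated in the labels. The p-values below weigh differences between groups against the spread among these samples, and that spread may therefore be technical.

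SAM is the methyl donor of the cell. SAM synthetases make it from methionine and ATP, methyltransferases turn it into S-adenosylhomocysteine, ahcy-1 encodes the hydrolase that removes that product, and metr-1 encodes the vitamin B12-dependent methionine synthase that closes the cycle with a methyl group from folate. In worms much of the phosphatidylcholine is made by methylation of phosphoethanolamine by PMT-1 and PMT-2, and knockdown of sams-1 is known to lower phosphatidylcholine and to raise fat stores through SBP-1, the worm relative of SREBP.

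Libraries held 20.3 to 28.1 M counts. Levels are CPM, counts per 1 M counts of a library after TMM scaling, and CPM divided by the length of a gene's merged exons (CPM per kb) is used to compare genes. Calls were made by edgeR's quasi-likelihood test, at a p under 0.05 after Benjamini-Hochberg adjustment over the 13695 genes. Bromhexine replicate 4 stood nearest to the other groups on the first principal component, at -42.7 against -65.2 to -58.5 in the other bromhexine libraries. Genipin replicate 1 held 29.7 CPM of cyp-35B2, against 1.48 to 4.196 CPM in the other genipin libraries, 781 to 898 CPM in bromhexine libraries and 0.279 to 0.775 CPM in DMSO libraries. Results that change without either library are given below. Markers of intestine, hypodermis, germline, sperm, body wall muscle and neurons were present in all groups, 1 of 6 sperm genes being at 0 in genipin libraries, and in whole worms fewer cells of a type and less RNA per cell cannot be told apart.

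With bromhexine, 3 of the 10 genes were called against DMSO, where 40.8% of all genes tested were. The minor synthetase gene sams-5 fell by 1.13 on the log2 scale, cbs-1, at the exit of the cycle to cysteine, fell by 0.37, and ahcy-1, the most abundant of the 10, was higher by 0.27. The median log2 fold change of the 10 was 0.05, beside 0.00 over all genes tested. With genipin none of the 10 was called against DMSO. sams-1, pmt-1 and pmt-2, the genes of the phosphatidylcholine route itself, were called in neither comparison, except that pmt-2 was called lower with bromhexine once bromhexine replicate 4 was left out.

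**Figure D1:**
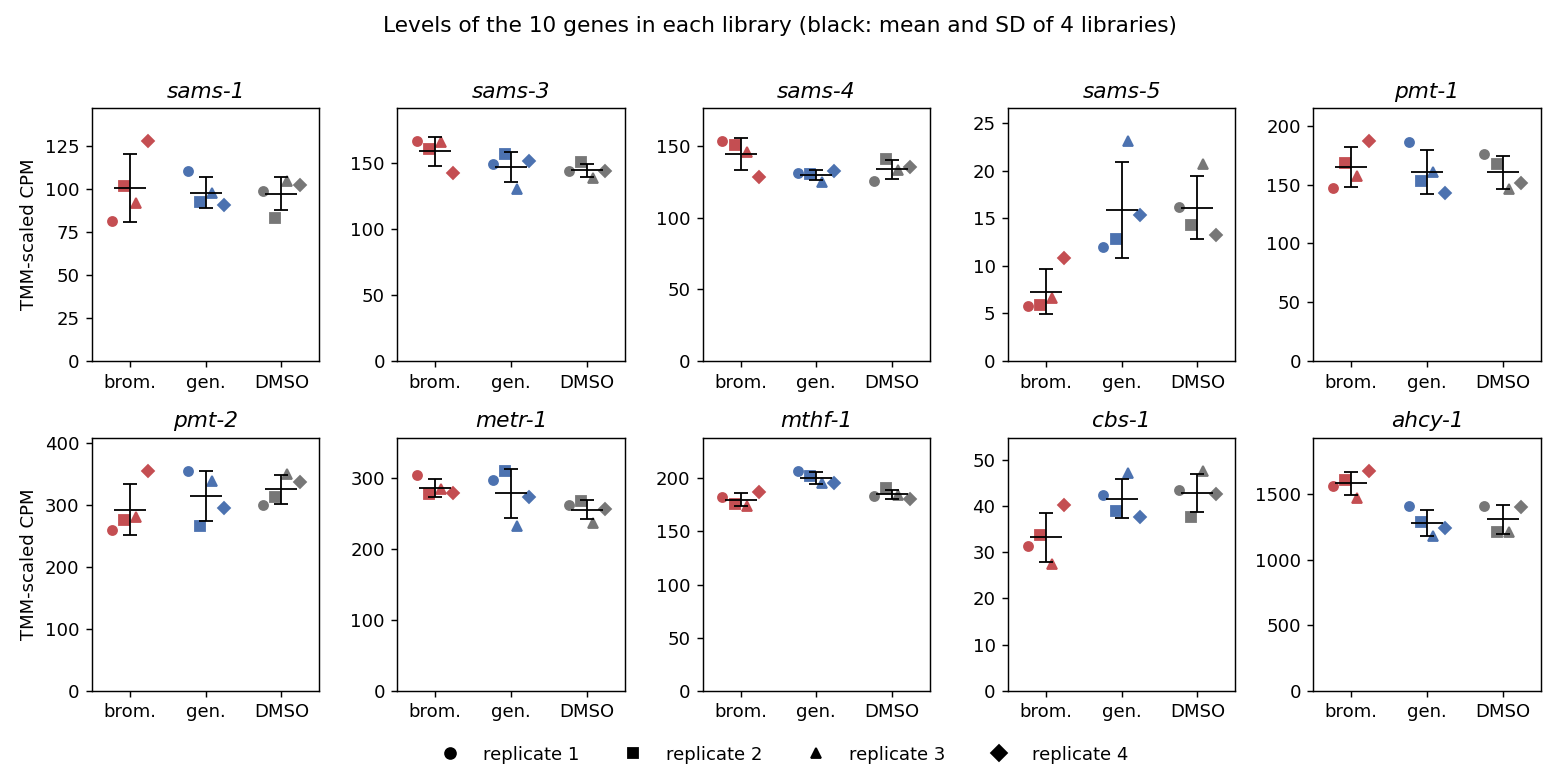
TMM-scaled CPM of the 10 genes on the y axes, one panel a gene with its own scale from 0, for the 4 libraries of bromhexine (brom., red), genipin (gen., blue) and DMSO (grey); black bars are the mean and SD. The 4 bromhexine libraries lie at 5.79 to 10.8 CPM for sams-5, below every DMSO library, and at 1476 to 1680 CPM for ahcy-1, above every DMSO library.

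sams-1 (WBGene00008205, chromosome X, 11965962 to 11969893, plus strand) encodes the synthetase best known for its part in phosphatidylcholine supply. It stood at 81.6, 102, 92.3 and 128 CPM in bromhexine libraries, 111, 92.7, 97.9 and 90.7 CPM in genipin libraries, and 99.2, 83.6, 105 and 102 CPM in DMSO libraries. The 3 groups overlapped, and the highest value of the 12 was that of bromhexine replicate 4. The log2 fold change was 0.05 ± 0.11 (SE) for bromhexine against DMSO (95% interval -0.19 to 0.30, adjusted p = 0.742 in edgeR). For genipin against DMSO it was 0.01 ± 0.11 (95% interval -0.24 to 0.25, adjusted p = 0.999 in edgeR).

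sams-3 (WBGene00015538, chromosome IV, 5848657 to 5850843, plus strand) and sams-4 (WBGene00015540, chromosome IV, 5844061 to 5846369, minus strand) are neighbours that point away from each other with 2287 bases between them. Their products are close relatives, and reads that matched both were divided between the pair by the authors' counting. Of the 120 values of the 10 genes, 24 carried decimals, all of them in this pair, and the sum of the pair was within 0.09 of a whole number in every library. How the counts split between the 2 genes is therefore uncertain, and the sum is the firmer value. sams-3 also shares 18 exon bases with C06E7.4 on the opposite strand.

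sams-3 stood at 167, 161, 166 and 143 CPM in bromhexine libraries, 149.6, 157, 131 and 152 CPM in genipin libraries, and 144, 151, 139 and 144 CPM in DMSO libraries. sams-4 stood at 153, 150.4, 146 and 129 CPM in bromhexine libraries, 131, 131, 125 and 133 CPM in genipin libraries, and 125, 141, 133 and 135 CPM in DMSO libraries. In both genes the first 3 bromhexine libraries lay above all DMSO libraries and replicate 4 lay among them. The summed pair differed by 0.13 ± 0.06 on the log2 scale for bromhexine against DMSO (adjusted p = 0.122 in edgeR) and by -0.01 ± 0.06 for genipin against DMSO (adjusted p = 0.999 in edgeR). Taken alone, sams-3 had 0.14 ± 0.07 (adjusted p = 0.105 in edgeR) and sams-4 had 0.11 ± 0.06 (adjusted p = 0.148 in edgeR) for bromhexine against DMSO. Without bromhexine replicate 4 both were called against DMSO, sams-3 at 0.19 (adjusted p = 0.0242 in edgeR; 0.0242 to 0.245 over its alternatives) and sams-4 at 0.16 (adjusted p = 0.0206 in edgeR; 0.0206 to 0.368 over its alternatives).

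sams-5 (WBGene00006416, chromosome IV, 6277433 to 6279522, minus strand) is a synthetase gene with far fewer transcripts. It stood at 5.79, 5.92, 6.63 and 10.8 CPM in bromhexine libraries, 11.98, 12.9, 23.1 and 15.4 CPM in genipin libraries, and 16.2, 14.3, 20.7 and 13.2 CPM in DMSO libraries. Bromhexine libraries lay below all libraries of the other groups, with replicate 4 nearest to them. Against DMSO, 19.7% of all genes tested lay wholly below in that way. The means were 7.29 ± 2.38 CPM with bromhexine, 15.8 ± 5.05 CPM with genipin and 16.1 ± 3.31 CPM with DMSO (SD, n = 4 each). sams-5 fell with bromhexine against DMSO by 1.13 on the log2 scale, a change of -54.4% (SE 0.23, adjusted p = 0.00165 in edgeR). It was called in every alternative run, with log2 fold changes of -1.40 to -0.99. For genipin against DMSO the value was -0.03 ± 0.22 (95% interval -0.50 to 0.45, adjusted p = 0.999 in edgeR), the widest interval of the 10.

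Per length, the summed transcripts of the 4 synthetase genes came to 204 to 209 CPM per kb in bromhexine libraries, 191 to 202 CPM per kb in genipin libraries and 193 to 200.4 CPM per kb in DMSO libraries. sams-3 and sams-4 together made up 75.9 ± 5.12% of that sum with bromhexine, 72.5 ± 2.65% with genipin and 72.6 ± 2.7% with DMSO (SD, n = 4 each). The share of sams-1 was 21.7 ± 4.37% with bromhexine, 22.1 ± 1.83% with genipin and 21.9 ± 2.07% with DMSO. The share of sams-5 was 1.90%, 1.90%, 2.17% and 3.57% in bromhexine libraries, 3.996%, 4.38%, 8.14% and 5.25% in genipin libraries, and 5.63%, 4.90%, 6.96% and 4.48% in DMSO libraries. sams-5 held the smallest share in every library.

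**Figure D2:**
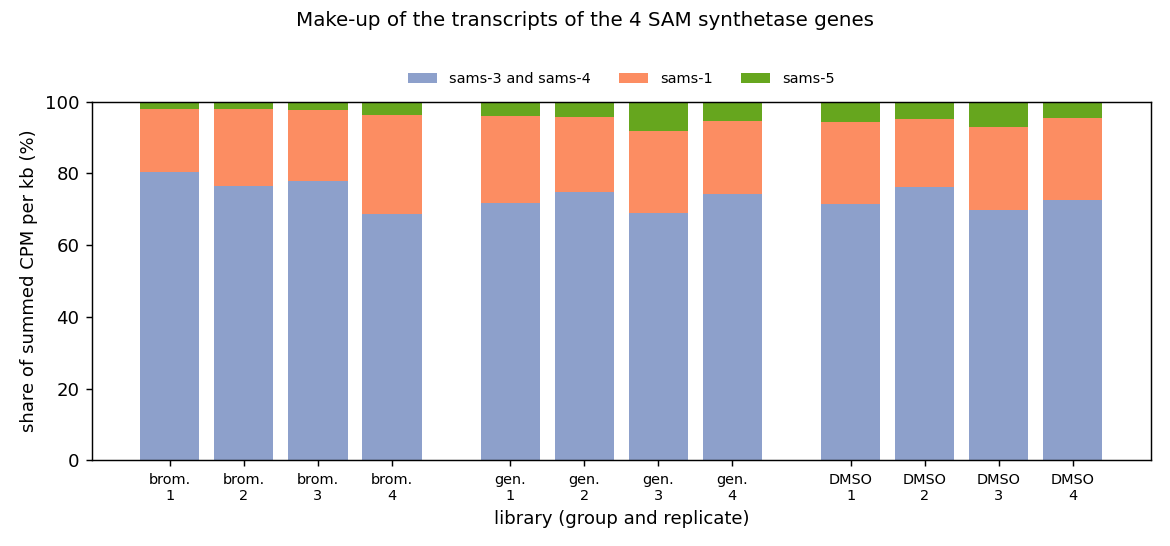
Share of the summed CPM per kb of the 4 SAM synthetase genes (y axis, percent) held by sams-3 with sams-4, by sams-1 and by sams-5 in each of the 12 libraries (brom., bromhexine; gen., genipin). The share of sams-5 is 1.90% to 3.57% in bromhexine libraries, 3.996% to 8.14% in genipin libraries and 4.48% to 6.96% in DMSO libraries.

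pmt-1 (WBGene00022781, chromosome II, 5278090 to 5282523, minus strand) encodes the enzyme of the first methylation of phosphoethanolamine. It stood at 147, 168, 157 and 187 CPM in bromhexine libraries, 186, 153, 161 and 143 CPM in genipin libraries, and 176, 168, 147 and 151 CPM in DMSO libraries. The 3 groups covered almost the same range. The log2 fold change was 0.04 ± 0.09 for bromhexine against DMSO (95% interval -0.15 to 0.23, adjusted p = 0.750 in edgeR) and 0.00 ± 0.09 for genipin against DMSO (95% interval -0.19 to 0.19, adjusted p = 0.999 in edgeR).

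pmt-2 (WBGene00018811, chromosome V, 4628580 to 4635263, plus strand) encodes the enzyme of the later methylations, which end in phosphocholine. It stood at 260.4, 276, 281 and 355 CPM in bromhexine libraries, 356, 267, 339 and 295 CPM in genipin libraries, and 301, 313, 351 and 338 CPM in DMSO libraries. The first 3 bromhexine libraries lay below all DMSO libraries and replicate 4 above them. The log2 fold change for bromhexine against DMSO was -0.15 ± 0.10 (95% interval -0.37 to 0.07, adjusted p = 0.251 in edgeR). Without bromhexine replicate 4 it was -0.25 and pmt-2 was called (adjusted p = 0.0325 in edgeR; 0.0194 to 0.510 over its alternatives). Genipin against DMSO gave -0.05 ± 0.10 (adjusted p = 0.997 in edgeR). Per length, pmt-2 had 2.12 ± 0.126 times the level of pmt-1 with bromhexine, 2.34 ± 0.196 times with genipin and 2.45 ± 0.376 times with DMSO (SD, n = 4 each).

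ahcy-1, the gene for removal of S-adenosylhomocysteine (WBGene00019322, chromosome I, 6836469 to 6838140, plus strand), had the highest level of the 10 genes in all 3 groups. It stood at 1566, 1612, 1476 and 1680 CPM in bromhexine libraries, 1414, 1286, 1179 and 1243 CPM in genipin libraries, and 1411, 1215, 1209 and 1402 CPM in DMSO libraries. All bromhexine libraries lay above all libraries of the other groups, and against DMSO 16.2% of all genes tested did. ahcy-1 rose with bromhexine against DMSO by 20.9%, a log2 fold change of 0.27 ± 0.08 (adjusted p = 0.0122 in edgeR; 0.00109 to 0.0414 over its alternatives). Genipin against DMSO gave -0.03 ± 0.08 (95% interval -0.20 to 0.13, adjusted p = 0.997 in edgeR).

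metr-1, the methionine synthase gene (WBGene00010988, chromosome II, 10926561 to 10931078, plus strand), stood at 303, 276, 284 and 278 CPM in bromhexine libraries, 297, 309, 232 and 272 CPM in genipin libraries, and 261, 267, 235.3 and 256 CPM in DMSO libraries. All bromhexine libraries lay above all DMSO libraries, while genipin libraries spanned both. The log2 fold change was 0.16 ± 0.08 for bromhexine against DMSO (adjusted p = 0.112 in edgeR) and 0.12 ± 0.08 for genipin against DMSO (adjusted p = 0.994 in edgeR). Without genipin replicate 3, which belongs to neither group compared, metr-1 was called for bromhexine against DMSO (adjusted p = 0.0400 in edgeR, and 0.0400 to 0.268 over its alternatives).

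mthf-1 (WBGene00015512, chromosome II, 7773904 to 7777823, minus strand) encodes methylenetetrahydrofolate reductase, which makes the methyl-folate that METR-1 uses. It shares 11 exon bases with C06A8.6 on the opposite strand. It stood at 183, 176, 174 and 188 CPM in bromhexine libraries, 207, 202, 195 and 196 CPM in genipin libraries, and 184, 191, 185 and 180.3 CPM in DMSO libraries. All 4 genipin libraries lay above all DMSO libraries, as they did for 1.5% of all genes tested. The log2 fold change for genipin against DMSO was 0.11 ± 0.05 (95% interval 0.01 to 0.22, unadjusted p = 0.0325 and adjusted p = 0.989 in edgeR). For bromhexine against DMSO it was -0.04 ± 0.05 (adjusted p = 0.539 in edgeR).

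cbs-1 (WBGene00013866, chromosome X, 10054275 to 10057528, plus strand) encodes cystathionine beta-synthase, which takes homocysteine out of the cycle. It stood at 31.4, 33.8, 27.5 and 40.2 CPM in bromhexine libraries, 42.5, 39.0, 47.3 and 37.7 CPM in genipin libraries, and 43.5, 37.7, 47.6 and 42.6 CPM in DMSO libraries. The first 3 bromhexine libraries lay below all libraries of the other groups and replicate 4 lay among them. cbs-1 fell with bromhexine against DMSO by 0.37 on the log2 scale, a change of -22.5% (SE 0.11, adjusted p = 0.0159 in edgeR; 0.00177 to 0.0556 over its alternatives). The call was lost without bromhexine replicate 3 (adjusted p = 0.0556 in edgeR) and without DMSO replicate 3 (adjusted p = 0.0548 in edgeR). Genipin against DMSO gave -0.04 ± 0.11 (95% interval -0.28 to 0.19, adjusted p = 0.997 in edgeR).

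**Figure D3:**
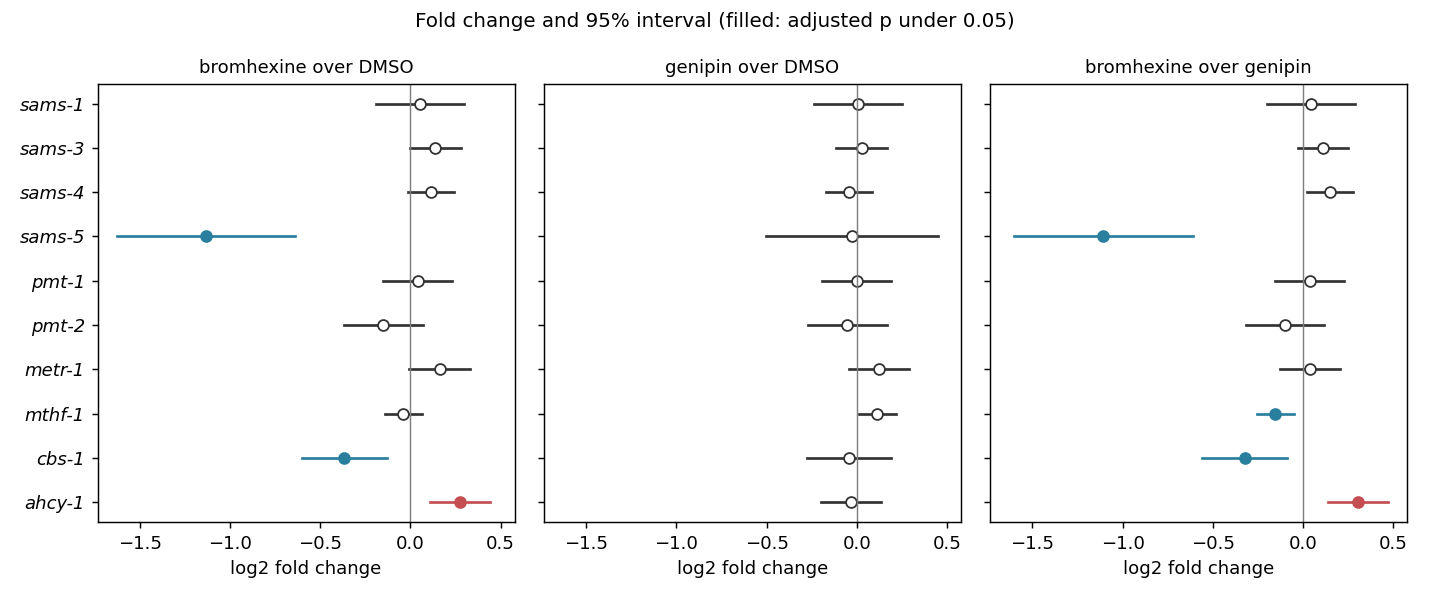
Log2 fold change (x axes) of the 10 genes for bromhexine over DMSO, genipin over DMSO and bromhexine over genipin, with 95% intervals; filled points were called at an adjusted p under 0.05. sams-5, at -1.13 over DMSO and -1.11 over genipin, lies farthest from 0, and no point is filled for genipin over DMSO.

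Set side by side, the 2 compounds share their DMSO libraries and differ in dose, so their values against DMSO are not independent and are given only beside each other. Against DMSO, genipin had no called member, where 0.0365% of all genes tested, 5 of 13695, were called. The adjusted p-values of the 10 genes ran from 0.989 to 0.999 in edgeR, and DESeq2 and limma voom also called 0 of them. At an unadjusted p under 0.05 only mthf-1 passed, where 4.9% of all genes tested did.

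The direct comparison of bromhexine with genipin called 4 of the 10 genes, where 34.5% of all genes tested were called. sams-5 was lower with bromhexine by -1.11 ± 0.23 on the log2 scale (adjusted p = 0.00229 in edgeR) and ahcy-1 was higher by 0.31 ± 0.08 (adjusted p = 0.00803 in edgeR), both without overlap between the groups. Over all genes tested, 16.5% lay wholly below and 11.2% wholly above genipin libraries. cbs-1 was lower by -0.32 ± 0.11 (adjusted p = 0.0343 in edgeR; 0.00396 to 0.111 over its alternatives). mthf-1 was lower by -0.15 ± 0.05 without overlap (adjusted p = 0.0249 in edgeR; 0.00599 to 0.0776 over its alternatives).

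The last 2 calls against genipin did not hold under every removal of 1 library. That of cbs-1 was lost without bromhexine replicate 1, 2 or 3 (adjusted p = 0.0895, 0.0648 and 0.111 in edgeR) and without genipin replicate 1 or 3 (adjusted p = 0.0641 and 0.111 in edgeR). That of mthf-1 was lost without bromhexine replicate 2 or 3 (adjusted p = 0.0734 and 0.0776 in edgeR) and without genipin replicate 1 (adjusted p = 0.0685 in edgeR). sams-4 differed by 0.15 ± 0.06 and was not called (adjusted p = 0.0609 in edgeR), but it was called without bromhexine replicate 4 (adjusted p = 0.00726 in edgeR; 0.00726 to 0.170 over its alternatives).

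Among the 10 genes the order of levels per length was led by ahcy-1, with 1031 ± 55.7 CPM per kb in bromhexine libraries against 852 CPM per kb in DMSO libraries, among the top 0.862% and 1.02% of genes tested. pmt-2 followed in all groups, at 186 CPM per kb with bromhexine, 199.6 CPM per kb with genipin and 207 CPM per kb with DMSO. pmt-1, sams-3, sams-4, metr-1 and mthf-1 formed a middle range of 65.7 to 87.7 CPM per kb with bromhexine and 64.5 to 85.4 CPM per kb with DMSO. Neighbours in that range overlapped between libraries, except metr-1 and mthf-1 with bromhexine and pmt-1 and sams-3 with DMSO. sams-1 stood at 44.7 CPM per kb with bromhexine, 43.4 CPM per kb with genipin and 43.2 CPM per kb with DMSO. cbs-1 and sams-5 came last in all 3 groups, and neither overlapped its neighbours.

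Replicates of a group differed in ways that ran through several members. In genipin replicate 3 and DMSO replicate 3, sams-5 and cbs-1 had the highest values of their group and sams-3 and metr-1 the lowest. The summed level of 7 germline and oocyte markers was lowest of its group in the same libraries, at 3773 CPM in genipin replicate 3 and 3898 CPM in DMSO replicate 3. Bromhexine replicate 4, with the highest sams-1, sams-5, pmt-1, pmt-2, cbs-1 and ahcy-1 and the lowest sams-3 and sams-4 of its group, also had the lowest germline sum, 4671 CPM, against 5520 to 5984 CPM in the other bromhexine libraries.

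Some tissue markers differed with the compound as well. The counts below stand beside 19% of all genes tested called higher and 21.8% called lower with bromhexine against DMSO. The 8 intestine markers summed to 3348 to 3718 CPM in bromhexine libraries, 1882 to 2161 CPM in genipin libraries and 1768 to 2035 CPM in DMSO libraries. Most of that sum was asp-1 alone, with means of 2907 CPM with bromhexine and 1390 CPM with DMSO. Of the 8 markers, 4 were called higher with bromhexine against DMSO. elt-2, elt-7, ifb-2 and act-5 were not called, with log2 fold changes of -0.04, -0.22, 0.12 and 0.04. The germline sum was 4671 to 5984 CPM in bromhexine libraries, 3773 to 5125 CPM in genipin libraries and 3898 to 4761 CPM in DMSO libraries, with 6 of 7 markers called higher with bromhexine against DMSO. Of body wall muscle markers 4 of 5 were called higher, with sums of 1114 to 1425 CPM in bromhexine libraries, 715 to 1353 CPM in genipin libraries and 571 to 1074 CPM in DMSO libraries. For genipin against DMSO their median log2 fold change was 0.49, with 0 of 5 called, where 0.0365% of all genes tested were. For bromhexine against genipin 1 of 5 was called higher, where 2057 of 13695 genes tested were. Of 6 sperm markers only 2, spe-44 and ssp-10, were tested, and both were called higher. The sums of all 6 were 17.8 to 23.5 CPM in bromhexine libraries and 15.5 to 17.3 CPM in DMSO libraries. Most of each sum was spe-44, with means of 18.98 CPM with bromhexine and 14.92 CPM with DMSO. ssp-10 had means of 0.783 CPM with bromhexine and 0.262 CPM with DMSO. The rest were too low to test, with means lower with bromhexine for spe-9 and spe-42 and higher for spe-11 and spe-38. Of hypodermis markers 1 was called higher and 2 lower of 6 tested, and of neuron markers 1 higher and 2 lower of 5. The summed hypodermis level was 355 to 532 CPM in bromhexine libraries and 358 to 435 CPM in DMSO libraries, and that of neurons 259 to 281 CPM in bromhexine libraries and 279 to 290.1 CPM in DMSO libraries. Their part in the values of the 10 genes was not tested.

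By the correlation of log2 CPM over the 12 libraries, which share their groups and depths, the genes most like sams-1 were ndg-4 (r = 0.89), F31F7.1 (r = 0.89), Y71H10B.1 (r = 0.89), acs-22 (r = 0.88) and npr-36 (r = 0.87). None of these 5 was called for bromhexine against DMSO (adjusted p = 0.2796 to 0.9752 in edgeR), and npr-36 had only 0.708 CPM with bromhexine and 0.711 CPM with DMSO. Those most like pmt-1 were glb-20 (r = 0.90), WBGene00010965, which has no symbol in the annotation (r = 0.83), T25D3.3 (r = 0.83), T28D6.7 (r = 0.82) and Y47G6A.33 (r = 0.82). Of these, glb-20 had only 0.725 CPM with bromhexine and 0.641 CPM with DMSO. T25D3.3 had only 1.252 CPM with bromhexine and 1.041 CPM with DMSO. Both sets were picked for the highest r of many genes over only 12 libraries. How high such r would run by chance was not tested.

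Around the 10 genes, 9 further lists of the pathway's neighbours held 112 genes of the table, of which 107 were tested. With bromhexine against DMSO, 27 of the 107 were called higher and 20 lower, where 19% of all genes tested were called higher and 21.8% lower. The median log2 fold change of the 107 was 0.07. With genipin against DMSO 0 of the 107 were called, and this held in every alternative run, DESeq2 and limma voom included. Each of the 8 lists with a call against DMSO held calls in both directions.

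Transsulfuration and cysteine genes gave 1 higher and 2 lower of 16 tested, with a median of -0.07. The largest change was in cth-1, a cystathionine gamma-lyase gene one step after cbs-1. cth-1 stood at 28.3, 33.2, 27.5 and 39.8 CPM in bromhexine libraries, 93.1, 66.6, 95.02 and 74.9 CPM in genipin libraries, and 78.5, 67.2, 94.97 and 78.7 CPM in DMSO libraries. It fell with bromhexine against DMSO by 1.31 on the log2 scale (SE 0.14, adjusted p = 6.62e-06 in edgeR) with no overlap. cth-2, the other listed cth gene, was not called (log2 fold change -0.22, adjusted p = 0.243 in edgeR). Its mean levels were higher than those of cth-1, at 172 CPM with bromhexine and 200 CPM with DMSO. sqrd-1, the sulfide:quinone oxidoreductase gene, fell by 0.41 (SE 0.08, adjusted p = 0.00112 in edgeR), and gss-1, the glutathione synthetase gene, was higher by 0.17 (SE 0.06, adjusted p = 0.0236 in edgeR).

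Vitamin B12 and methionine cycle genes outside the 10 gave 3 higher and 2 lower of 10 tested, with a median of 0.13. mmcm-1, which encodes the B12-dependent methylmalonyl-CoA mutase, was higher with bromhexine, at 181 to 205 CPM in bromhexine libraries against 140.3 to 163 CPM in DMSO libraries (log2 fold change 0.33 ± 0.07, adjusted p = 0.00263 in edgeR). cblc-1 and mmaa-1, whose human relatives handle B12, were higher by 0.27 and 0.18, and mce-1, the methylmalonyl-CoA epimerase gene, fell by 0.19 (adjusted p = 0.0209, 0.0246 and 0.0291 in edgeR). Propionate genes gave 2 higher and 1 lower of 9, with a median of 0.01. nhr-10, a nuclear receptor that turns on the B12-independent propionate shunt, fell to 17.7 to 23.4 CPM in bromhexine libraries, against 28.6 to 34.6 CPM in DMSO libraries (log2 fold change -0.67 ± 0.10, adjusted p = 0.000109 in edgeR). hphd-1, an enzyme gene of that shunt, was higher by 0.28, and pccb-1, a subunit of the B12-dependent route, by 0.20 (adjusted p = 0.0210 and 0.0142 in edgeR). The shunt's enzyme genes acdh-1, ech-6, hach-1 and alh-8 were not called, at -0.10, 0.01, 0.16 and 0.18 (adjusted p = 0.0874 to 0.936 in edgeR).

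Several of these smaller calls were lost when 1 library was left out. cblc-1 was not called without bromhexine replicate 3 or DMSO replicate 3 (adjusted p = 0.0775 and 0.0721 in edgeR; 0.00889 to 0.0775 over its alternatives). mmaa-1 was not called without bromhexine replicate 1, 2 or 3 or DMSO replicate 3 or 4 (adjusted p = 0.0644 to 0.0711 in edgeR; 0.00578 to 0.0711 over its alternatives). mce-1 was not called without bromhexine replicate 1 or 3 or DMSO replicate 2 or 3 (adjusted p = 0.0635 to 0.0985 in edgeR; 0.0124 to 0.0985 over its alternatives). gss-1 was not called without bromhexine replicate 1 or 3 or DMSO replicate 1, 3 or 4 (adjusted p = 0.0567 to 0.0714 in edgeR; 0.00823 to 0.0723 over its alternatives). hphd-1 was not called without bromhexine replicate 2 or 4 or DMSO replicate 1 or 2 (adjusted p = 0.0514 to 0.0658 in edgeR; 0.00653 to 0.0658 over its alternatives).

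Folate genes gave 4 higher and 3 lower of 12 tested, with a median of 0.13. gldc-1, which encodes the glycine decarboxylase that feeds carbon from glycine into folate, stood at 106, 112, 103 and 126 CPM in bromhexine libraries, 71.99, 62.5, 58.8 and 47.5 CPM in genipin libraries, and 51.8, 51.9, 55.9 and 56.2 CPM in DMSO libraries. It rose with bromhexine against DMSO by 1.05 on the log2 scale (SE 0.10, adjusted p = 2.43e-06 in edgeR) and all bromhexine libraries lay above the rest. alh-3, a formyl-folate dehydrogenase gene, rose by 0.43 and atic-1, of purine synthesis, by 0.46 (adjusted p = 0.000211 and 0.000790 in edgeR). folt-1, a folate transporter gene, fell by 0.70 (adjusted p = 0.00302 in edgeR), with means of 4.46 CPM with bromhexine and 7.29 CPM with DMSO. folt-2, of the same family, was not called (log2 fold change 0.09, adjusted p = 0.477 in edgeR). Its means were 353 CPM with bromhexine and 332 CPM with DMSO, and folt-3 was too low to test. tyms-1, which encodes the thymidylate synthase that FUDR inhibits, is named here after its value was seen, and it fell by 0.18 (adjusted p = 0.0169 in edgeR). None of the 4 polyamine genes tested, which draw on decarboxylated SAM, was called.

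In the CDP-choline and CDP-ethanolamine (Kennedy) pathway, the other route to phosphatidylcholine, 5 genes were higher and 2 lower of 13 tested, with a median of 0.08. ckb-4, of the choline kinase family at the entry, fell by 0.57 and pcyt-1, the phosphocholine cytidylyl-transferase gene, fell by 0.43 (adjusted p = 0.00166 and 0.0159 in edgeR). Within the choline kinase family, cka-1 was called higher, at 0.26 (adjusted p = 0.0167 in edgeR). Mean levels with bromhexine and DMSO were 80.5 and 67.2 CPM for cka-1, and 15.3 and 22.8 CPM for ckb-4. cka-2, ckb-1 and ckb-2 were not called. cept-1, a choline and ethanolamine phosphotransferase gene at the last step, rose by 0.71 and ept-1, an ethanolamine phosphotransferase gene, by 0.28 (adjusted p = 0.00317 and 0.00503 in edgeR). cept-1 stood at 33.7 to 41.7 CPM in bromhexine libraries, 17.1 to 26.7 CPM in genipin libraries and 15.4 to 27.7 CPM in DMSO libraries. pcyt-1 stood at 58.2, 58.8, 58.3 and 73.3 CPM in bromhexine libraries and 83.0, 75.1, 98.9 and 77.3 CPM in DMSO libraries, and its call was lost without DMSO replicate 3 (adjusted p = 0.0607 in edgeR; 0.00346 to 0.0607 over its alternatives).

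Genes of phosphatidylserine, phosphatidylethanolamine and phosphatidic acid gave 6 higher and 2 lower of 12 tested, with a median of 0.18. acl-1, an acyltransferase gene, rose by 0.45 and lpin-1, the lipin phosphatase gene, by 0.35, while mboa-7, a lysophospholipid acyltransferase gene, fell by 0.56 and acl-5, an acyltransferase gene, by 0.37 (adjusted p = 0.000729, 0.000938, 0.000309 and 0.00625 in edgeR).

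SBP-1 and its regulators and targets gave 3 higher and 2 lower of 11 tested, with a median of 0.06. sbp-1 itself rose with bromhexine against DMSO, at 33.3 to 37.2 CPM in bromhexine libraries against 23.2 to 29.9 CPM in DMSO libraries (log2 fold change 0.36 ± 0.09, adjusted p = 0.00492 in edgeR), and scp-1, the worm relative of SCAP, rose by 0.24 (adjusted p = 0.00810 in edgeR). pod-2 and fasn-1, of fatty acid synthesis, moved in opposite directions. pod-2, which encodes acetyl-CoA carboxylase, rose by 0.80 (SE 0.08, adjusted p = 3.56e-06 in edgeR), with 633 to 716 CPM in bromhexine libraries, 380.4 to 488 CPM in genipin libraries and 353 to 415 CPM in DMSO libraries. fasn-1, which encodes fatty acid synthase, fell by 0.47 (SE 0.09, adjusted p = 0.00128 in edgeR), with 165 to 228 CPM in bromhexine libraries, 272 to 343 CPM in genipin libraries and 247 to 288 CPM in DMSO libraries. The desaturase genes fat-2, fat-5, fat-6 and fat-7 were not called, at 0.16, -0.24, 0.06 and -0.29 (adjusted p = 0.112 to 0.649 in edgeR). nhr-49 was called lower, at -0.15 (adjusted p = 0.0362 in edgeR).

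Of SAM-dependent methyltransferase genes 3 were higher and 6 lower of 20 tested, with a median of -0.10. comt-4, of the catechol O-methyltransferase family, fell to 2.85 to 3.38 CPM in bromhexine libraries, against 8.40 to 11.4 CPM in DMSO libraries (log2 fold change -1.63 ± 0.23, adjusted p = 0.000101 in edgeR). pcm-1, the protein isoaspartate methyltransferase gene, fell by 0.58 and set-2, a histone methyltransferase gene, by 0.24 (adjusted p = 0.00145 and 0.00281 in edgeR). anmt-3, of the amine N-methyltransferase family, rose by 0.66 (adjusted p = 0.000901 in edgeR), with 7.92 to 9.17 CPM in bromhexine libraries against 4.58 to 6.05 CPM in DMSO libraries. The other listed genes of that family, anmt-1 and anmt-2, were called lower, at -0.92 and -0.53 (adjusted p = 0.00389 and 0.0193 in edgeR).

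**Figure D4:**
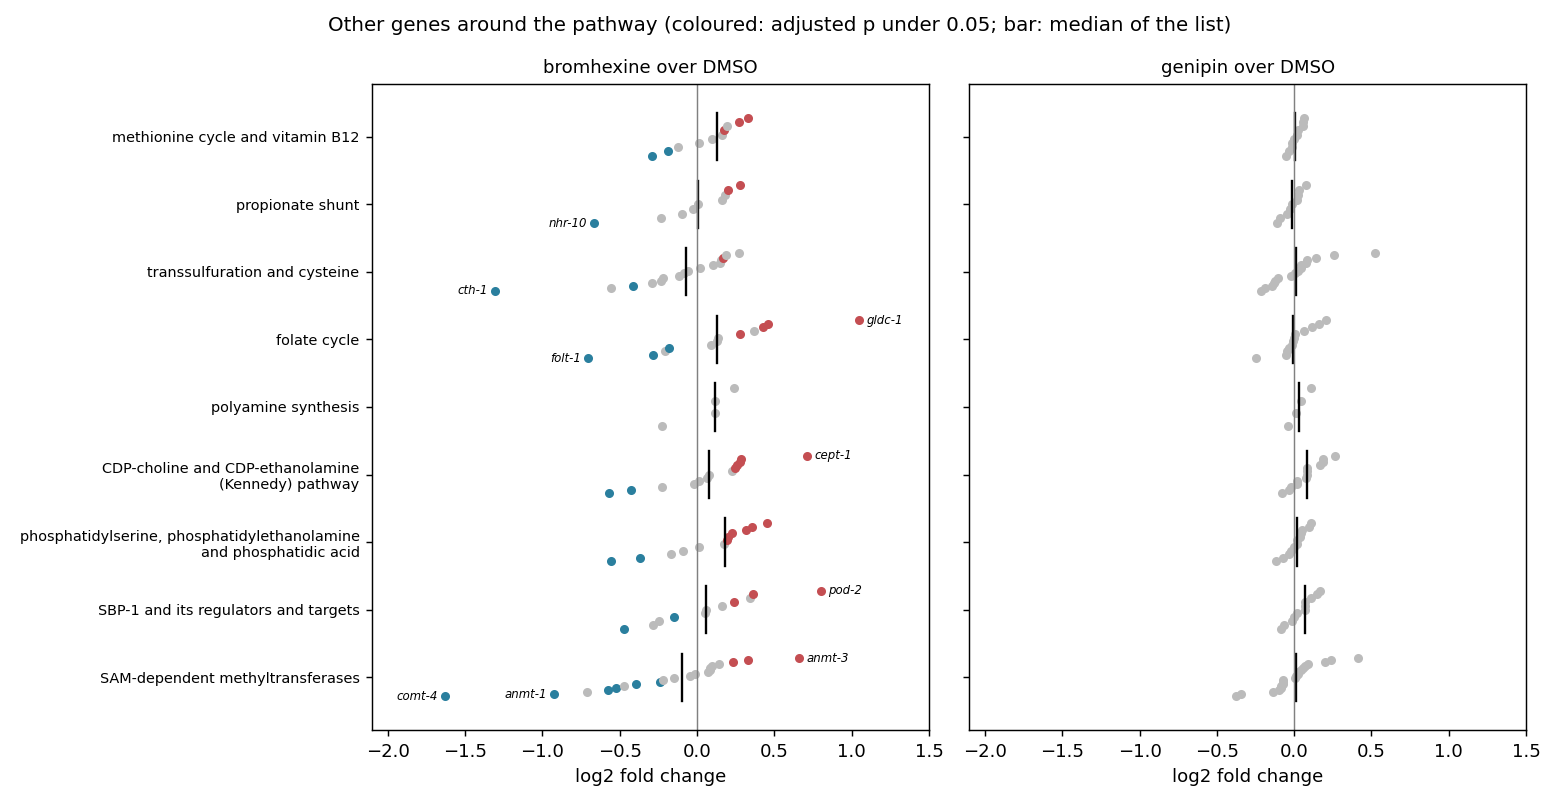
Log2 fold change (x axes) of each tested gene of the 9 neighbouring lists (rows) for bromhexine over DMSO and genipin over DMSO; coloured points were called, grey points were not, and black bars are list medians. With bromhexine 27 genes are called higher and 20 lower, with comt-4 at -1.63 and gldc-1 at 1.05 at the ends, and with genipin 0 are called.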

How the data were processed

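RNA was sequenced as paired reads of 150 nt, per the labels' protocols. Per the submitters' processing notes, reads were checked with FastQC, aligned to WBcel235 with STAR 2.7.11b and counted with RSEM 1.3.3. The annotation release used for counting is not given in the sources used here. The authors deposited expected counts, in which a read that matches several genes is shared out among them, so that 2.06% of all values carry decimals. They were rounded to whole numbers here. All 46926 gene IDs were found in the Ensembl release 115 annotation of WBcel235, which gave names, positions and exon lengths.

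Counts were analysed in R 4.3.3 with edgeR 4.0.16: filterByExpr on the 3 groups, TMM scaling, and 1 quasi-likelihood fit of all 12 libraries by group, with no other term. Benjamini-Hochberg adjustment ran over the 13695 genes tested, with calls under 0.05. The SE of a log2 fold change is its size divided by the square root of F. The procedure was tested on simulated counts. Correlations for likeness used log2 CPM with a prior count of 2. Within each group no library was a copy of another: chi-squared per degree of freedom between replicates was at least 6.3. Libraries of different groups were not compared in this way.

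The members and gene lists were chosen with earlier results of these data known. Named genes are the 10 members, up to 4 called genes with the smallest p of each neighbouring list for bromhexine against DMSO and up to 2 for genipin against DMSO, and the 5 genes most like sams-1 and pmt-1. Further genes of the same family, step or list are named beside some of them, after their values were seen. 2 listed names, sams-2 and mpst-5, matched no gene name, and mpst-4, mpst-6, folt-3, ckb-3 and comt-1 were too low to test. Alternatives were RLE and upper quartile scaling, tests without a filter or with at least 1 CPM in 4 libraries, DESeq2 1.42.0, limma 3.58.1 with voom, a replicate block, fits of the 8 libraries compared, an adjusted p under 0.01, sams-3 and sams-4 summed, and each library left out in turn. Leaving out bromhexine replicate 4 and genipin replicate 1 together was added after the data were seen.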

Additional observations from a re-analysis of the deposited data

Results flagged for a closer look

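sams-5 in bromhexine replicate 4 stood apart from its group. It had 10.8 CPM, against 5.79 to 6.63 CPM in the other 3 bromhexine libraries, and its gap to the nearest of them was 0.833 of the range of the group, above Dixon's limit for 4 values. Of 30 sets of 4 values, 10 genes in 3 groups, it was the only one past its limit, and chance flags about 1 in 20. The library also stood nearest to the other groups on the first principal component. Without it sams-5 still fell with bromhexine against DMSO.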

How the results depend on the processing

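The calls of sams-5 held in every alternative, and that of ahcy-1 in all but an adjusted p under 0.01 for bromhexine against DMSO. The cause of the changes below was not tested. At an adjusted p under 0.01, 0 members were higher and 1 lower for bromhexine against DMSO, with 15 higher and 12 lower neighbouring genes and 3188 calls over all genes; for bromhexine against genipin, 1 member was lower, 11 neighbouring genes were higher and 2457 genes were called. Upper quartile scaling gave 15 higher neighbouring genes for bromhexine against genipin. RLE scaling and DESeq2 each gave 2 higher members for bromhexine against genipin. For genipin against DMSO the genes called over the table were 17 with no filter, 31 with DESeq2, 2 with voom, 3 with 8 libraries and 2 at 0.01. With 1 library left out, members called for bromhexine against DMSO were 1 to 3 higher and 1 to 3 lower, with 13 to 23 lower neighbouring genes; against genipin they were 1 to 2 higher and 1 to 3 lower, with 14 to 29 higher and 11 to 25 lower neighbouring genes. Calls for genipin against DMSO over all genes were then 2 to 11. Without bromhexine replicate 4 and genipin replicate 1 together there were 3 higher members and 24 lower neighbouring genes for bromhexine against DMSO, 2 higher members for bromhexine against genipin, and 8 calls over all genes for genipin against DMSO.

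Log2 values that changed sign belonged to genes not called in the comparison concerned. For genipin against DMSO, pmt-1 was -4e-04 with RLE, -6e-04 with upper quartile scaling, -0.005 with no filter, -3e-04 with DESeq2, -0.002 with voom and -0.004 with 8 libraries. With upper quartile scaling pmt-1 was -0.0063 for bromhexine against DMSO and -0.0058 against genipin, and metr-1 -0.0048 against genipin. With 1 library left out, values for bromhexine against DMSO ran from -0.0833 to 0.141 for sams-1 and -0.0257 to 0.0903 for pmt-1. Those against genipin ran from -0.091 to 0.132 for sams-1, -0.0267 to 0.117 for pmt-1 and -0.0389 to 0.0956 for metr-1. Those for genipin against DMSO ran from -0.0608 to 0.0435 for sams-1, -0.0042 to 0.0808 for sams-3, -0.263 to 0.117 for sams-5, -0.0826 to 0.0546 for pmt-1, -0.121 to 0.0194 for pmt-2, -0.11 to 0.0106 for cbs-1 and -0.0876 to 0.0061 for ahcy-1. Without both doubted libraries, sams-1 was -0.0867 and pmt-1 -0.0297 for bromhexine against DMSO, sams-1 -0.0608, sams-5 0.0794 and pmt-1 -0.0826 for genipin against DMSO, and sams-1 -0.0259 for bromhexine against genipin.

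Correlations of deviations between samples with the same replicate number were -0.12 to 0.00 for bromhexine and DMSO and -0.16 to -0.03 for bromhexine and genipin. For genipin and DMSO they were 0.02, 0.30, 0.25 and 0.18, so 3 of 4 pairs were above 0.1 and replicate 1 was not, and the numbers were not taken to pair the samples. The replicate block gave 5444, 5 and 4542 calls over all genes for bromhexine against DMSO, for genipin against DMSO and for bromhexine against genipin, and 1 higher and 2 lower, 0, and 1 higher and 3 lower members. Under it the call of mce-1 was lost (adjusted p = 0.0515 in edgeR; 0.0124 to 0.0985 over its alternatives).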
